A study of Rattus norvegicus with 6 samples.

Results

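The rows described here are those of rat miR-378a, miR-378b and miR-3557. They were found by name in a table of mature miRNA counts, and 5 of its 1289 rows matched: rno-miR-378a-3p, rno-miR-378a-5p, rno-miR-3557-3p, rno-miR-3557-5p and rno-miR-378b. The first 4 come from a pair of genes, Mir378 and Mir3557, that lie on opposite strands of the same stretch of DNA. They were chosen by name, but selected on counts already seen, since miR-378a-5p and miR-3557-3p were known to trade places, each nearly empty in a part of the libraries of either group. The levels of those rows are therefore a description, and nothing is read from their place in the comparison of EN with EC. The counts come from 3 EN and 3 EC libraries of PC12 cells, a line grown from a rat adrenal pheochromocytoma that is widely used as a model of neurons and chromaffin cells. The series concerns exosomes of endothelial cells engineered with Netrin-1, a secreted axon guidance protein, but the labels do not spell out EN or EC and give no agent, dose or time. Both groups share the cell line, which is a tumour line, and no label calls the replicates separate cultures. A p-value here thus reflects differences among these libraries, which may be technical.

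A miRNA gene is transcribed into a hairpin, and 1 or both arms of the stem are cut out as mature miRNAs, named 5p and 3p by their position in the transcript. The gene of miR-378a is known to sit in an intron of Ppargc1b and to be transcribed with it. Ppargc1b encodes PGC-1 beta, a transcriptional coactivator of mitochondrial biogenesis and fatty acid oxidation. In mouse, miR-378a-3p is known to repress carnitine O-acetyltransferase and the 5p arm to repress the Mediator subunit Med13, both regulators of energy use, and in human breast cancer cells the 5p arm is known to repress the estrogen-related receptor gamma. No role is stated here for miR-3557.

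The sequences are shown because the names of the rows hide that they are opposite strands of the same bases. In the RefSeq tables of the GRCr8 build, Mir378 and Ppargc1b are on the minus strand of chromosome 18 and Mir3557 is on the plus strand, with both miRNA genes inside the span of Ppargc1b. The submitters' processing notes name Rnor 6.0 instead, so the positions below belong to the sequences and not to the counts. Each mature sequence is written 5′ to 3′ with its seed, bases 2 to 8, in capitals. The seed is the part that a miRNA mainly uses to find its targets.
miR-378a-5p (chr18:57128962-57128983, minus strand): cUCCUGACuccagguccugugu
miR-3557-3p (chr18:57128962-57128983, plus strand): aCACAGGAccuggagucaggag
miR-378a-3p (chr18:57128925-57128945, minus strand): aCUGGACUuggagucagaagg
miR-3557-5p (chr18:57128924-57128945, plus strand): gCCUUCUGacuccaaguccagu
The first pair covers the same 22 bases on opposite strands, with the same first and last base. In the other pair, the 21 bases of miR-378a-3p lie inside the 22 of miR-3557-5p, which extends 1 base further. This is plain when both miR-3557 arms are read on the opposite strand, with the part identical to miR-378a in capitals.
miR-3557-3p read on the opposite strand: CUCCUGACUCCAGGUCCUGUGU
miR-3557-5p read on the opposite strand: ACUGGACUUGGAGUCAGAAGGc
The miR-3557 hairpin, with its 5p and then its 3p arm in capitals, shows how far apart both pairs lie.
Mir3557 hairpin: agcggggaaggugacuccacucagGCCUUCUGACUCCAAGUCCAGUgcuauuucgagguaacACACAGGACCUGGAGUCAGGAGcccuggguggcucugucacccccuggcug
The 4 seeds differ from each other, and among the mature rat miRNAs of the RefSeq table no other sequence shares any of them over bases 2 to 8; miR-378b is not in that table and was not compared. Read 5′ to 3′, the rows of a pair share a run of only 4 bases, so their sequences differ. The sources used here do not state a strand rule for the counting, so a count in either row can be of either gene.

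Depth was 4521694 to 5371351 miRNA counts in the EN libraries and 6153582 to 6554639 in the EC libraries. Levels are CPM, the counts of a row scaled to the library's miRNA counts after TMM scaling, and the arms differ by at most 1 base in length, so they are compared without a length correction. As a check of the cell type, the neuroendocrine miR-7a-5p stood at 1235 to 1488 CPM in EN and 973 to 1134 CPM in EC. MiR-375-3p, also a neuroendocrine marker, was nearly absent at 1.98 to 3.19 CPM over all 6 libraries. So was miR-7b, another marker of that list, at 0 to 0.925 CPM. The muscle markers miR-1-3p and miR-133a-3p stood at 1.39 CPM or less in every library. MiR-206-3p, also of muscle, stood at 1.66, 1.60 and 1.10 CPM in EN and at 28.9, 1.44 and 3.21 CPM in EC, so it was high in EC replicate 1 alone. MiR-451-5p of red blood cells stood at 30.5, 19.7 and 19.7 CPM in EN and 5.10, 9.42 and 9.77 CPM in EC, with no overlap and an adjusted p of 0.0471 by edgeR's test. The liver marker miR-122-5p stood at 8.23 to 14.4 CPM in EN and 5.95 to 9.74 CPM in EC, and the endothelial marker miR-126a-3p stood at 1053 to 1200 CPM in EN and 1007 to 1077 CPM in EC.

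Rno-miR-378a-5p, the less abundant arm of miR-378a, had 3170, 199 and 204 counts in EN replicates 1, 2 and 3, and 3266, 4089 and 16 counts in EC replicates 1, 2 and 3. As levels these were 586, 45.5 and 44.7 CPM in EN and 504, 653 and 2.44 CPM in EC. The row was full in EN replicate 1 and EC replicates 1 and 2, low in EN replicates 2 and 3, and almost empty in EC replicate 3, so the groups overlapped widely. Rno-miR-3557-3p, which covers the same bases on the plus strand, had 21, 2333 and 2451 counts in EN and 327, 348 and 3711 counts in EC. Its levels of 3.88, 533 and 537 CPM in EN and 50.5, 55.6 and 567 CPM in EC were high exactly where miR-378a-5p was low.

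Added within each library, miR-378a-5p and miR-3557-3p came to 3191, 2532 and 2655 counts in EN and 3593, 4437 and 3727 counts in EC. The sum stood at 590, 579 and 582 CPM in EN and 555, 708 and 569 CPM in EC. Across the 6 libraries it varied by 1.28-fold from lowest to highest, while the miR-378a-5p row alone varied by 267-fold and the miR-3557-3p row alone by 146-fold. The pooled within-group SD on the log2 scale was 0.14 for the sum, 3.45 for miR-378a-5p and 3.15 for miR-3557-3p. Over the 325 rows that averaged at least 100 counts the median was 0.21, and 237 of them had a larger SD than the sum while 9 had a larger one than miR-378a-5p. The row named miR-378a-5p held 99.3 percent of the pair in EN replicate 1 (Wilson 95 percent interval 99.0 to 99.6), 7.86 percent in EN replicate 2 (6.87 to 8.97) and 7.68 percent in EN replicate 3 (6.73 to 8.76). In EC it held 90.9 percent (89.9 to 91.8), 92.2 percent (91.3 to 92.9) and 0.429 percent (0.264 to 0.696). Such intervals cover counting error only, and the shares differed within a group by far more than that.

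**Figure D1:**
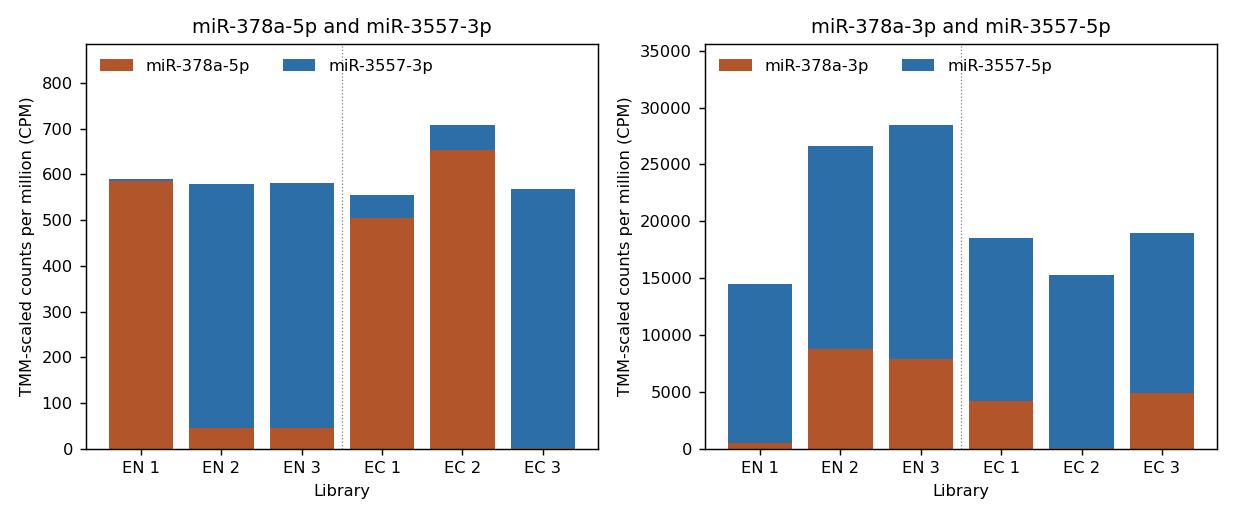
TMM-scaled CPM of the rows of each pair by library, stacked, with EN left of EC; each bar is 1 library and both axes start at 0. On the left the heights lie between 555 and 708 CPM while the colours change places between libraries; on the right miR-3557-5p fills most of every bar.

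Rno-miR-378a-3p, usually the more abundant arm of miR-378a in mammals, had 2883, 38383 and 36054 counts in EN and 27383, 271 and 32108 counts in EC. Its levels were 533, 8773 and 7896 CPM in EN and 4228, 43.3 and 4902 CPM in EC. The row was almost empty in EC replicate 2, low in EN replicate 1 and at 4228 CPM or more in the other 4 libraries. Rno-miR-3557-5p, on the opposite strand of the same bases, had 75449, 78227 and 93947 counts in EN and 92825, 95616 and 92267 counts in EC. At 13957, 17880 and 20576 CPM in EN and 14332, 15264 and 14087 CPM in EC, this row was the largest of the 5 in every library. Its within-group SD of 0.21 on the log2 scale was close to the median of the 325 rows.

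This pair did not change places as the other one did. MiR-378a-3p held 3.68 percent of the pair in EN replicate 1 (Wilson 95 percent interval 3.55 to 3.81), 32.9 percent in EN replicate 2 (32.6 to 33.2) and 27.7 percent in EN replicate 3 (27.5 to 28.0). In EC it held 22.8 percent (22.5 to 23.0), 0.283 percent (0.251 to 0.318) and 25.8 percent (25.6 to 26.1). In EN replicate 1, where miR-378a-3p was low, miR-3557-5p was also at its lowest, 13957 CPM. In EC replicate 2, where miR-378a-3p was almost empty, miR-3557-5p stood at 15264 CPM, against 14332 and 14087 CPM in EC replicates 1 and 3. The sum of both rows, 14478, 26647 and 28508 CPM in EN and 18555, 15304 and 18995 CPM in EC, was therefore lowest in EN replicate 1 and EC replicate 2, the libraries with the least miR-378a-3p. Its pooled within-group SD of 0.40 on the log2 scale was exceeded by 55 of the 325 rows. These counts do not show whether every read of the bases is in 1 of both rows.

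**Figure D2:**
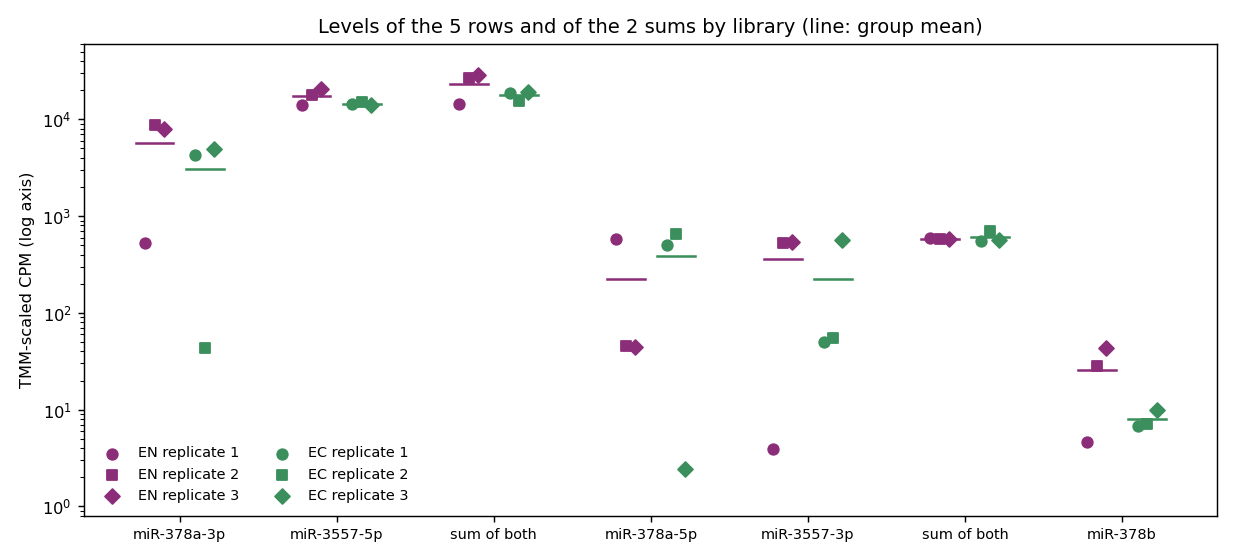
TMM-scaled CPM on a log axis for the 5 rows and for the sum of each pair, with EN left of EC; each symbol is 1 library and each line a group mean. The sum of miR-378a-5p and miR-3557-3p stays between 555 and 708 CPM, while miR-378a-3p, miR-378a-5p and miR-3557-3p each spread over more than a factor of 100.

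The locus as a whole was abundant. Its 4 rows together held 1.52, 2.63 and 2.91 percent of all miRNA counts in EN and 1.92, 1.63 and 1.95 percent in EC. With the pairs summed, miR-378a-3p with miR-3557-5p ranked 23, 11 and 11 among all rows in EN and 19, 22 and 17 in EC. MiR-378a-5p with miR-3557-3p ranked 97 to 99 in EN and no higher than 95 in EC. The side of the hairpin stem that holds miR-378a-3p and miR-3557-5p took 96.1 to 98.0 percent of the counts of the locus in EN and 95.6 to 97.1 percent in EC. That unequal use of both sides was seen in all 6 libraries and does not depend on how counts are split within a pair. It covers only reads placed in the 4 rows, and its size was not even. The share was lowest in EN replicate 1 (96.1 percent) and EC replicate 2 (95.6 percent), the libraries with the least miR-378a-3p.

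Between rows of 1 gene the arm ratio could not be read. The log2 ratio of the miR-378a-5p row to the miR-378a-3p row was 0.14, -7.58 and -7.46 in EN and -3.07, 3.91 and -10.9 in EC. By the rows alone the 5p arm thus exceeded the 3p arm in EN replicate 1 and EC replicate 2 and fell below it in the other 4 libraries. With the pairs summed, the same ratio was -4.62, -5.52 and -5.61 in EN and -5.06, -4.43 and -5.06 in EC, a range of 1.18 in place of 14.8. The summed ratio was still highest in EN replicate 1 and EC replicate 2, the libraries with the least miR-378a-3p. It averaged -5.25 ± 0.55 in EN and -4.85 ± 0.36 in EC (SD, n = 3 each), a difference of -0.40. The exact permutation test, two-sided, gave p = 0.3, where 3 against 3 libraries allow no p below 0.1.

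For the comparison of EN with EC, each row was tested with edgeR (quasi-likelihood), and p-values were adjusted over all rows of the table by the Benjamini-Hochberg method. All 5 rows entered the test and 0 passed an adjusted p of 0.05, against 3.98 percent of the 628 rows tested. Their lowest unadjusted p by edgeR's test, 0.0835 for miR-378b, ranked 178 among the 628. DESeq2 called 1, miR-378b, where it called 11.1 percent of all rows tested, and limma-voom called 0, where it called 3.66 percent. DESeq2 gave no p-value for miR-3557-3p. In 0 of the 5 rows were the groups free of overlap, against 29.6 percent of the rows tested. Overlap in miR-378a-5p and miR-3557-3p was known when the rows were chosen, so these counts out of the 5 rows are a description. For the rows that pass from low to full within a group, the log2 fold change of EN over EC is a description of that spread. It was 0.91 (SE 1.84) for miR-378a-3p, -0.78 (SE 2.07) for miR-378a-5p and 0.67 (SE 1.92) for miR-3557-3p. MiR-3557-5p, the 1 row of the locus with an even level, averaged 17471 ± 3328 CPM in EN and 14561 ± 621 CPM in EC (SD, n = 3 each). Its log2 fold change was 0.26 (SE 0.14), with an adjusted p of 0.312 by edgeR's test.

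The sum of miR-378a-5p with miR-3557-3p gave a narrower estimate than either of its rows, while the sum of miR-378a-3p with miR-3557-5p had a larger SE than the miR-3557-5p row alone. MiR-378a-5p with miR-3557-3p averaged 584 ± 5.71 CPM in EN and 611 ± 84.8 CPM in EC (SD, n = 3 each). Its log2 fold change was -0.07 (SE 0.13), with a 95 percent interval from -0.37 to 0.24 and an adjusted p of 0.805 by edgeR's test, in a fit where 4.95 percent of 626 rows passed. With library totals implied by the deposited RPM values, which moved the median of all rows to -0.30, it was -0.40 (SE 0.15) with an adjusted p of 0.109 by edgeR's test. MiR-378a-3p with miR-3557-5p averaged 23211 ± 7620 CPM in EN and 17618 ± 2016 CPM in EC, a log2 fold change of 0.40 (SE 0.27) with an interval from -0.26 to 1.05 and an adjusted p of 0.454. EN replicates 2 and 3 lay above every EC library and EN replicate 1 below every EC library. Without EN replicate 1 the log2 fold change was 0.65 and the adjusted p 0.0392 by edgeR's test, in a fit where 39 of 650 rows passed. So 1 library decides that call. With the RPM totals the log2 fold change was 0.06. All 4 rows added together gave 0.38 (SE 0.26) with an adjusted p of 0.452, in a fit where 4.96 percent of 625 rows passed. Without EN replicate 1 they gave 0.63 with an adjusted p of 0.0387 by edgeR's test, where 39 of 649 rows passed.

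**Figure D3:**
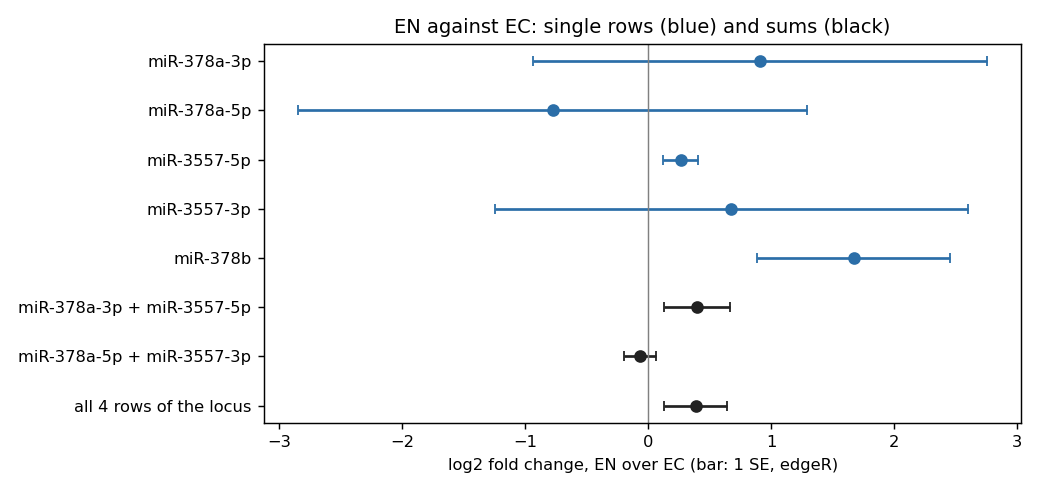
Log2 fold change of EN over EC from edgeR, with bars of 1 SE, for the 5 rows (blue) and the 3 sums (black). The bars of miR-378a-3p, miR-378a-5p and miR-3557-3p reach 1.84 to 2.07 to either side, while that of miR-378a-5p with miR-3557-3p reaches 0.13 to either side of -0.07.

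MiR-378b is made from another gene, on chromosome 5 in the RefSeq table. It had 25, 125 and 197 counts in EN and 44, 45 and 65 counts in EC, or 4.62, 28.6 and 43.1 CPM in EN and 6.79, 7.18 and 9.92 CPM in EC. EN replicates 2 and 3 were above every EC library, and EN replicate 1 was below every one. The log2 fold change was 1.67 (SE 0.78), with an adjusted p of 0.293 by edgeR's quasi-likelihood test. DESeq2 gave an adjusted p of 0.0424. Without EN replicate 1, edgeR gave a log2 fold change of 2.17 with an adjusted p of 0.0220, where 34 of 652 rows passed. EN replicates 2 and 3 are also the libraries with the highest miR-378a-3p rows, at 8773 and 7896 CPM, and EN replicate 1 has the lowest miR-378a-3p row of its group. In EC these rows did not run in parallel. MiR-378a-3p stood at 4228, 43.3 and 4902 CPM in EC replicates 1, 2 and 3, while miR-378b stood at 6.79, 7.18 and 9.92 CPM. Whether reads are shared between miR-378a-3p and miR-378b was not tested.

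Among the mature sequences of the RefSeq table, 530 of the 584 known rows were matched, and 33 pairs of rows overlapped by at least 15 bases on opposite strands. Of these, 25 pairs had a mean summed count of 100 or more. In 4 of them both mature sequences had the same first and last base, and in all 4 the share of 1 row ranged over 98.9 to 100 percentage points across the 6 libraries. Beside miR-378a-5p with miR-3557-3p these were let-7a-5p with miR-3596a, miR-125b-5p with miR-3588 and miR-181a-1-3p with miR-3570. In the 21 pairs with different ends the median range was 1.69 percentage points. Of these, 5 pairs differ by 1 base: miR-501-3p with miR-3560 ranged over 92.8 points, miR-378a-3p with miR-3557-5p over 32.6, miR-130a-3p with miR-3590-5p over 21.1, let-7e-5p with miR-3596c over 2.16 and miR-218a-5p with miR-218b over 0.393. The other 16 differ by 2 or more bases and ranged over at most 17.0 points. In some of the 21 pairs 1 row was nearly empty in every library, which leaves little room for a range. An example is let-7d-5p with miR-3596b, where let-7d-5p held at least 99.96 percent in each library. Below a mean summed count of 100, a pair with the same ends, miR-369-5p with miR-3578, also ranged over 100 points, with at most 28 counts in any row. So did a pair whose ends differ by 1 base, miR-183-5p with miR-3553, at a mean summed count of 51. The largest ranges were known when these rows were chosen, so the split by ends is a description.

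The libraries that were low were not the same from pair to pair. MiR-378a-5p held under 10 percent of its pair in EN replicates 2 and 3 and EC replicate 3. Let-7a-5p did so in EN replicates 1 and 3, miR-125b-5p in EN replicate 2 and EC replicate 3, and miR-181a-1-3p in EN replicates 1 and 2 and EC replicate 1. No library was low in all 4 pairs, and each of these pairs had both a low and a high library among the 3 EN libraries.

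**Figure D4:**
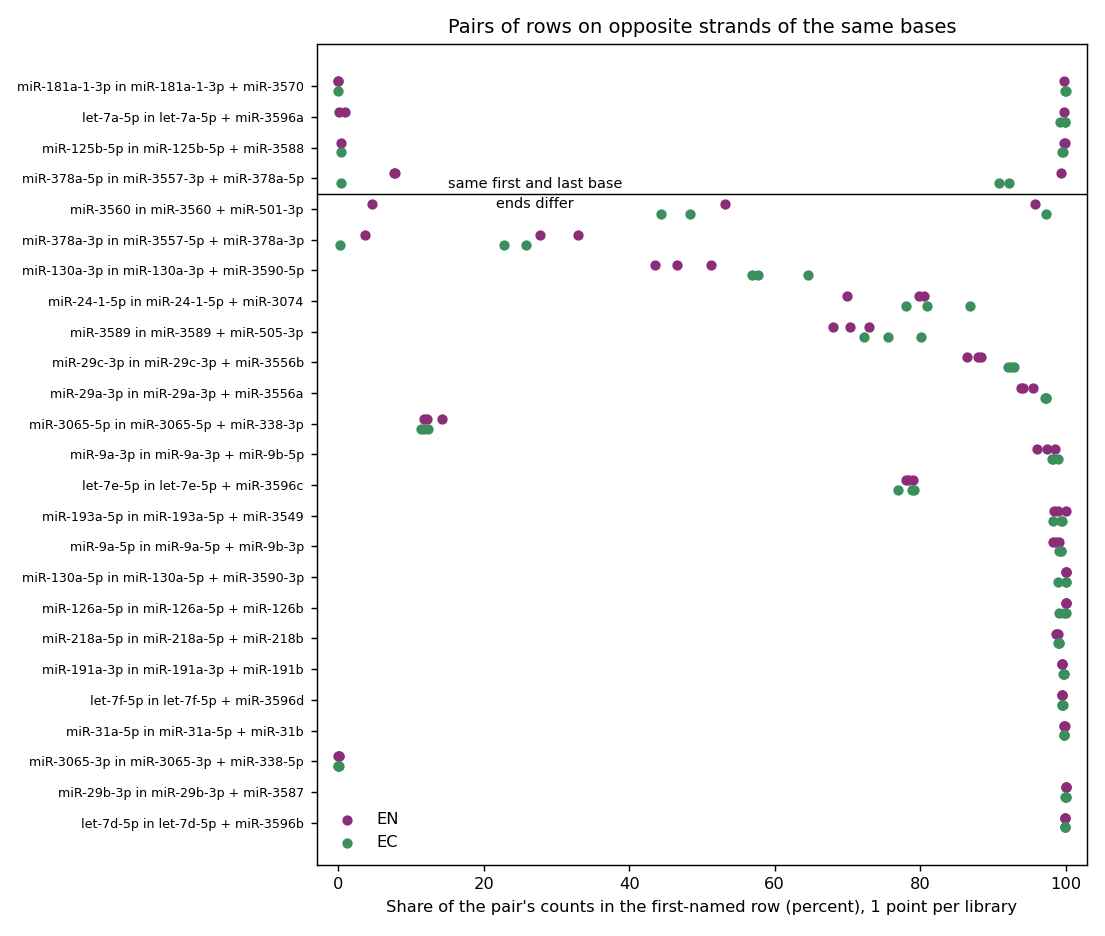
Share of the counts of a pair that is in the first-named row, in percent, for 25 pairs of rows on opposite strands, with 1 point per library, EN above EC. Above the line are the 4 pairs with the same first and last base, whose points lie below 10 or above 90 percent; below it are the 21 pairs with different ends, with the pairs of miR-3560 and of miR-378a-3p the most spread.

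Among 250 other known rows that averaged at least 100 counts, those whose log2 levels over the 6 libraries were most like the sum of miR-378a-3p and miR-3557-5p were miR-193a-5p (Pearson r = 0.972), miR-100-5p (0.910), miR-27a-5p (0.895), miR-702-5p (0.893) and let-7e-3p (0.885). MiR-193a-5p, for example, stood at 24.95, 40.9 and 42.8 CPM in EN and 28.9, 23.0 and 26.7 CPM in EC, so it too was highest in EN replicates 2 and 3. Most like the sum of miR-378a-5p and miR-3557-3p were miR-153-5p (0.902), miR-15b-3p (0.873), miR-22-5p (0.863), miR-33-5p (0.811) and miR-146b-5p (0.793). MiR-153-5p stood at 90.4, 79.5 and 82.0 CPM in EN and 88.4, 125 and 89.8 CPM in EC, again highest in EC replicate 2. With 6 libraries and 250 rows to pick from, high values can arise for many patterns. How often they do was not tested, and these values are given as a description.

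Of 24 rows of other miRNAs known for lipid, glucose or mitochondrial metabolism, or set in introns of metabolic genes, 17 were tested. None passed edgeR's test, Benjamini-Hochberg adjusted, in either direction, against 3.98 percent of all rows. DESeq2 and limma-voom called 0, against 11.1 and 3.66 percent of all rows. Log2 fold changes were negative in 14 of the 17, with a median of -0.16, against a median of 0.02 and 49.2 percent negative over all 628 rows. With library totals implied by RPM, 3 of 17 were lower, against 14.2 percent of all rows, and the median was -0.49, against -0.30 for all rows. MiR-27a-3p and miR-27b-3p, known to restrain fat cell differentiation, averaged 19115 ± 1377 and 6618 ± 578 CPM in EN, against 19887 ± 2024 and 7394 ± 505 CPM in EC (SD, n = 3 each). MiR-27a-5p, the other arm of that gene, averaged 711 ± 205 CPM in EN and 613 ± 52.4 CPM in EC. MiR-33-5p, encoded in an intron of Srebf2 and known to repress the cholesterol exporter Abca1, averaged 1639 ± 50.7 CPM in EN and 1875 ± 483 CPM in EC. MiR-103-3p, encoded in introns of pantothenate kinase genes, averaged 351 ± 121 CPM in EN and 523 ± 33.5 CPM in EC, with an adjusted p of 0.253 by edgeR's test. MiR-193b-3p, known in brown fat development in mouse, averaged 254 ± 15.4 CPM in EN and 326 ± 14.1 CPM in EC, with the lowest adjusted p of the list by edgeR's test, 0.125.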

How the data were processed

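Small RNA of 6 PC12 libraries was analysed. Per the labels' protocols, RNA was taken with Trizol and libraries were made with an Illumina TruSeq kit. The authors deposited raw read counts per mature miRNA row and, beside them, RPM values scaled to a library total larger than the summed miRNA counts. HISAT2 2.0.5 and Rnor 6.0 come from the submitters' processing notes. The sources used here name no counting program, strand rule or treatment of reads with several matches, and each could move reads between rows of opposite strands.

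The members and lists were chosen with earlier results of these data known. Counts were tested with edgeR 4.0.16 in R 4.3.3 (filterByExpr, TMM, quasi-likelihood with robust dispersion, no replicate block), on the table as deposited and with the member rows replaced by 2 sums or by 1. The SE of a log2 fold change is its absolute value over the root of F. The test was checked on simulated data. Exact permutation tests used scipy 1.17.1, and tables and figures pandas 2.3.3 and matplotlib 3.10.9 in Python 3.11.15. Arm ratios are log2 with 1 count added to each side.

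Named miRNAs are the members, the 6 most abundant tested rows of the metabolic list, the 5 rows most like each sum, and the pairs on opposite strands. MiR-369-5p with miR-3578 and miR-183-5p with miR-3553 were named after their values were seen, and cell type markers come from a list. Alternatives were RLE factors, no factors, library totals implied by RPM, no filter, a mean of 10 CPM, DESeq2 1.42.0, limma-voom (limma 3.58.1), a replicate block, no newly named rows, no rows of the 5 most abundant miRNAs, overlapping pairs summed, and each library left out.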

Additional observations from a re-analysis of the deposited data

How the results depend on the processing

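Of 136 alternative values for the 5 rows and 3 sums, 125 kept their direction and their side of the threshold, 7 changed sign without passing and 4 newly passed. Those 4 were miR-378b with DESeq2 (log2 fold change 1.67) and, without EN replicate 1, miR-378b, miR-378a-3p with miR-3557-5p, and all 4 rows summed. The last 2 share most of their counts. Without EN replicate 1, 34 of 652 rows passed as deposited, 39 of 650 with 2 sums and 39 of 649 with 1 sum. The 125 include miR-3557-3p with DESeq2, which got no p-value and was counted as not passing. MiR-378a-5p became 0.21 with limma-voom and 0.15 with the replicate block, miR-3557-3p -0.21 with limma-voom and -0.085 with the replicate block, miR-3557-5p -0.074 with library totals implied by RPM, and miR-378a-5p with miR-3557-3p 0.0072 without newly named rows. Without 1 library, log2 fold changes ranged from 0.23 to 0.65 for miR-378a-3p with miR-3557-5p, -0.12 to 0.076 for miR-378a-5p with miR-3557-3p, 0.22 to 0.63 for all 4 rows, 0.33 to 1.45 for miR-378a-3p, -3.11 to -0.11 for miR-378a-5p, 0.13 to 0.40 for miR-3557-5p, 0.18 to 2.75 for miR-3557-3p and 1.05 to 2.17 for miR-378b, and the summed arm ratio from -0.72 to -0.19. Calls over all rows were 25 (13 higher, 12 lower), 101 (13 higher, 88 lower) with library totals implied by RPM, 44 without a filter, 70 with DESeq2, 2 with the replicate block and 2 to 39 without 1 library. MiRNA counts made up at most 26.9 percent of the library total implied by RPM in EN and at least 30.9 percent in EC. Whether this difference accounts for the lower calls with those totals was not tested. The cause of the other changes in calls was not tested either. Same-numbered libraries deviated together at r = 0.091, -0.036 and 0.018, and libraries of unlike numbers at -0.124 to 0.095. Such correlations cannot show whether libraries of the same number were prepared together, which the labels do not say. Under the replicate block 0 of the 5 rows passed. Shares from the RPM columns lay within the counting intervals. Low counts limit how closely the levels of miR-378b and of the emptied rows are known. The pairs that hold the emptied rows had 2532 counts or more in every library.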
